A study of Mus musculus with 14 samples.

Results

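The genes described here are 88 genes whose normalized read counts were lowest in untrained THY-Tau22 mice, chosen by their values in 1 of the 2 RNA-seq experiments of the study and then followed in the other. In the untrained cohort, 12352 of 26570 genes had a mean of 100 or more normalized counts over the 5 libraries. These were ranked by the lowest WT library divided by the highest THY-Tau22 library, and 12 of the top 100 were left out by name. These were Arc, Npas4, Fos, Junb, Egr1, Egr2, Nr4a1, Nr4a3, Dusp1, Dusp5 and Dusp6, which are immediate early genes or their relatives, and Mvd, a gene of cholesterol synthesis. All 88 remaining genes were listed in the learning experiment and all 88 passed its filter on low counts, among 16820 genes tested.

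In THY-Tau22 mice the Thy1 promoter drives mutated human Tau in neurons, and Tau aggregates form in the hippocampus. Libraries were made from poly-A RNA of the dorsal hippocampus of male C57BL6 mice aged 8 months, bred on the C57BL6/J background per the study's methods. The untrained cohort held 3 WT and 2 THY-Tau22 libraries from mice with no training and no injection named in the labels. In the learning experiment WT mice were injected with saline and were either left in the home cage (WT VEH_HC, 3 libraries) or trained in the Morris water maze and killed shortly after the last session (WT VEH, 2 libraries). Trained THY-Tau22 mice were injected with CSP, a carbon nanosphere (TAU VEH, 2 libraries), or with CSP-TTK21, the same sphere carrying an activator of the acetyltransferases CBP and p300 (TAU MOL, 2 libraries). The genotype of TAU VEH therefore cannot be told apart from its different vehicle. The learning libraries analysed here held no untrained THY-Tau22 group. The labels do not tie libraries to mice. The study's methods speak of samples of the learning experiment as mice, and say that some, all from a single litter, were left out after their variability had been seen. The p-values measure only the spread between the libraries kept.

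Libraries held 24693713 to 52180305 counts on genes. Thy1, whose promoter drives the transgene, stood at 27697 to 37001 normalized counts in the 8 WT libraries and at 64439 to 86624 in the 6 THY-Tau22 libraries, with the 2 experiments normalized separately. All 9 hippocampal marker genes looked for were detected in every library. The libraries differed in how levels followed the GC content of the genes. The rank correlation across 13391 genes between GC content and a library's deviation from the mean was 0.588 in untrained THY-Tau22 replicate 1 and −0.689 in replicate 2. It was −0.490 to −0.734 in the 4 THY-Tau22 libraries of the learning experiment against 0.116 to 0.551 in its 5 WT libraries, across 13536 genes. Markers of the choroid plexus, a tissue next to the dorsal hippocampus, summed to 90993 to 131410 normalized counts in WT VEH and 6671 to 17377 in WT VEH_HC. The sums were 19466 to 22700 in TAU VEH and 44896 to 49566 in TAU MOL. In the untrained cohort they were 21108 to 25353 in WT, while the 2 THY-Tau22 libraries stood far apart at 24984 and 70607. No member is on that list.

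Neuronal activity raises calcium and cAMP in the cell, which activate the transcription factor CREB and its coactivators CBP and p300. A first wave of immediate early genes overlaps with genes whose products restrain the same signals or change the synapse. Many of these genes carry a cAMP response element, TGACGTCA or its shorter form TGACG, near their start. Among the 88 members, 10 are on a list of 48 such activity-regulated genes. They include Sik1, a kinase that holds back the CREB coactivators of the CRTC family, and Spry4, an inhibitor of the signal from receptor tyrosine kinases to ERK. Trib1 is a pseudokinase, Gadd45b a stress- and activity-induced gene tied to DNA demethylation, and Gpr3 a receptor that raises cAMP without a ligand. Midn takes nuclear proteins such as the products of immediate early genes to the proteasome. Arl4d and Rasl11a are small GTPases, and Ier2 and Klf10 are nuclear factors induced early after stimulation. Of the other members, Creld2, Dnajb1 and Manf are chaperone or endoplasmic reticulum stress genes, Sc4mol and Ebp encode enzymes of cholesterol synthesis, Mog is a myelin gene, Pcp4 is on the CA2 and CA3 marker list and Hbb-b2 is a globin gene.

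Promoter sequence from RefSeq (GRCm38.p6, 250 bases before to 50 after the start) was at hand for 69 of the 88 members and for 12571 of the genes tested. On either strand, TGACG was found in 25 of the 69 member promoters (36.2%) and in 33.0% of all, and the full TGACGTCA, which contains it, in 2 (2.90%, Arl4d and Pvr) and in 3.34% of all. CCAAT was found in 52.2% of member promoters and 42.2% of all, GGGCGG in 59.4% and 65.6%, CACGTG in 7.25% and 11.1%, TATAAA in 13.0% and 9.08%, TCACNCCAC in 1.45% and 1.42%, and the CArG box in 1.45% and 1.56%. The shares are a description, and no motif was tested. Of the 5 activity-list members with a promoter at hand, 4 held TGACG, namely Arl4d, Midn, Gpr3 and Rasl11a. Arl4d, Midn and Gpr3 are shown because they were lower in trained THY-Tau22 mice. Rasl11a was not called there and is not shown, so the choice says nothing of a tie between the element and the decrease. The 250 bases before each start are given 5′ to 3′ on the strand of the gene, with every TGACG or TGACGTCA of either strand in capitals, for Arl4d at chr11:101665291-101665540 (plus strand, 1 full element and 1 separate TGACG), Midn at chr10:80148022-80148271 (plus strand, 1 TGACG) and Gpr3 at chr4:133212537-133212786 (minus strand, 2 TGACG), in GRCm38.p6.
Arl4d: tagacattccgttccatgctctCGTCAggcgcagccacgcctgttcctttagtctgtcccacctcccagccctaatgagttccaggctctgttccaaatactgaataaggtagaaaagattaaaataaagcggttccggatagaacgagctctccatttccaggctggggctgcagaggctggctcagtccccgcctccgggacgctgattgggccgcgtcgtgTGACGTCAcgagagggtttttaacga
Midn: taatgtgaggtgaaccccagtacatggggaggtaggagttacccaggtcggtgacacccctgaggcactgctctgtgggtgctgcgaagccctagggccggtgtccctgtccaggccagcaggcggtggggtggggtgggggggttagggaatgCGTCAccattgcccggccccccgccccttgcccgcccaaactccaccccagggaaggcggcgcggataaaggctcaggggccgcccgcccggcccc
Gpr3: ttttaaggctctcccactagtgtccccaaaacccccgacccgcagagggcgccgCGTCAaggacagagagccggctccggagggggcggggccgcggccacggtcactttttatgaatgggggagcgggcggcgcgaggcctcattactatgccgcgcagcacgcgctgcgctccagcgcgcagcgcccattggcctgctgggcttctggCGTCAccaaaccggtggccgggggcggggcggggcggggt

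In the untrained cohort the values chose the members, so that they are given as a description. Spry4, first among the members, had 675, 666 and 703 normalized counts in the WT libraries and 423 and 453 in the THY-Tau22 libraries. Sik1 had 465, 369.7 and 431 in WT and 222 and 264 in THY-Tau22. Both genes were thus separated by a wide margin, with a lowest WT over highest THY-Tau22 ratio of 1.47 and 1.40. Over the 88 members this ratio had a median of 1.16, it was 1.2 or more for 25 members and 1.3 or more for 5, and the log2 ratio of the group means ran from −1.23 (Dlk1) to −0.21 (Ppp1r14c) with a median of −0.43. At the limit of the list, Ebp was the last gene inside with a ratio of 1.125 (677 against 602), and Cckbr the first outside with 1.1249 (369.7 against 329). In all, 1199 of the 12352 genes (9.71%) had every WT library above every THY-Tau22 library, and 944 had every THY-Tau22 library above every WT library.

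The members below the first pair in rank were of mixed kinds. Serpinb1a, a protease inhibitor, had 663, 481 and 654 in WT and 345 and 309.8 in THY-Tau22, and Nipal4, a membrane protein of the magnesium transporter family, 391, 256 and 359 in WT and 198 and 186 in THY-Tau22. In these genes WT replicate 2 was the lowest WT library. So it was for Ddc, the decarboxylase that makes dopamine and serotonin (372, 271 and 352 in WT, 204 and 208 in THY-Tau22), for Bbox1, the last enzyme of carnitine synthesis (163, 118 and 157 in WT, 91.1 and 85.98 in THY-Tau22), and for the myelin gene Mog (4146, 2690.5 and 3446 in WT and 2334 and 2305 in THY-Tau22). Oligodendrocyte markers summed to 255530 to 420640 in WT and to 237340 to 247550 in THY-Tau22, and the part of this difference in the values of Mog was not tested. In bulk tissue, fewer cells of a type and less RNA per cell cannot be told apart. Jsrp1, a protein of the calcium release unit of muscle, had 155, 127 and 138 in WT and 90.02 and 94.2 in THY-Tau22. Dlx5, a homeobox factor of forebrain interneurons, had 149.97, 136 and 126 in WT and 94.4 and 75.4 in THY-Tau22. Gadd45b was among the tightest, with 428, 435 and 423 in WT and 323 and 327 in THY-Tau22, and the stress gene Creld2 had 556, 583 and 472 in WT and 368 and 365 in THY-Tau22.

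**Figure D1:**
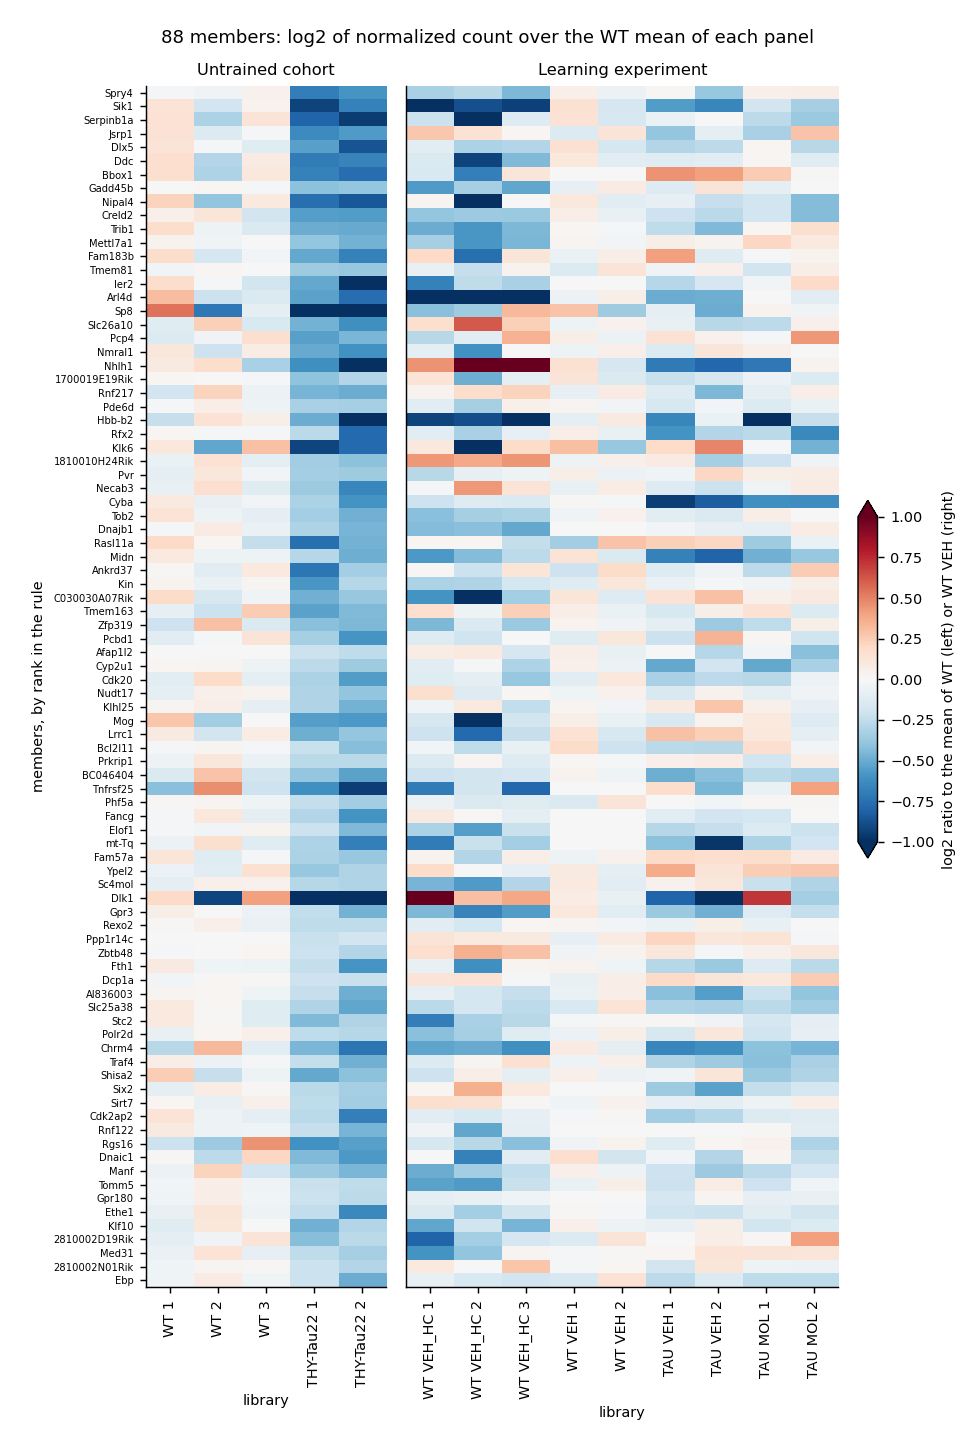
Colour shows, for each of the 88 members (rows, in the order of the rule) and each library (columns), the log2 of its normalized count over the mean of the 3 WT libraries (untrained cohort, left) or of the 2 WT VEH libraries (learning experiment, right), with values beyond 1 or −1 drawn at the limit. The left panel is blue in both THY-Tau22 columns because the rule chose the genes so, and in the right panel 67 of 88 members had a fitted log2 fold change below 0 in TAU VEH versus WT VEH (with scaling by library size alone 40, against 29.7% of all genes).

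Compared with all genes past the limit of 100, the members were lower in level (median of the mean normalized count 359.8 against 1025), shorter (median exon length 2402 against 3924 bases) and richer in GC (median 52.2% against 50.1%), and 12 of the 88 (13.6%) lie on chromosome 11, which holds 8.21% of those genes. For 21 members the exons overlap those of another gene, among them Gpr3, Chrm4, BC046404, Manf, Pcp4 and mt-Tq. Reads in the overlaps cannot be told apart. The kit does not mark the strand, and in some overlaps, such as that of Pcp4 with Igsf5, both genes lie on the same strand.

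The list depended on each untrained library. When the genes were ranked without THY-Tau22 replicate 1, 10 of the 89 genes then chosen were among the 88, and without THY-Tau22 replicate 2 it was 29 of 89. Without WT replicate 1, 2 or 3, the number shared was 46 of 90, 12 of 90 and 48 of 87. The median GC content of the list was 57.8% without THY-Tau22 replicate 1 and 46.7% without replicate 2, the libraries with opposite relations to GC content, so that the 88 genes are those low in both. The part of GC content in the choice was not tested.

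The question put to the learning experiment was whether genes low in untrained THY-Tau22 mice are also low in trained ones. In TAU VEH versus WT VEH, 12 of the 88 members (13.6%) were lower by edgeR's quasi-likelihood test (adjusted p under 0.05 over all genes tested and an absolute log2 fold change above 0.2), and 10.8% of all genes tested were. Among the 12352 genes of the level the rule asks for, 14.1% were lower, so that the members' share is near the background. No member was higher (0 of 88, 3.61% of all genes tested), with DESeq2 also giving 0, and 1 member was higher at an unadjusted p under 0.05 (10.4% of all). At the same unadjusted limit 22 members were lower, against 16.7% of all genes. The signs leaned further than the calls: 67 members (76.1%) had a log2 fold change below 0, against 49.3% of all genes, while with scaling by library size alone it was 40 members, against 29.7% of all genes. In 36 members (40.9%) both TAU VEH libraries lay below both WT VEH libraries, against 28.2% of all genes. The median log2 fold change was −0.10 over the members, with quartiles of −0.29 and −0.01, and 0.00 over all genes. With scaling by library size alone, which moves the median of all genes to 0.15, 7 of 88 members were lower and 3 higher, against 6.06% and 15.3% of all genes, and the members' median was 0.04. Leaving out any 1 of the 4 WT VEH and TAU VEH libraries left 6 of 88 members lower, and the share of all genes fell as well, to 4.71% to 6.48%.

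**Figure D2:**
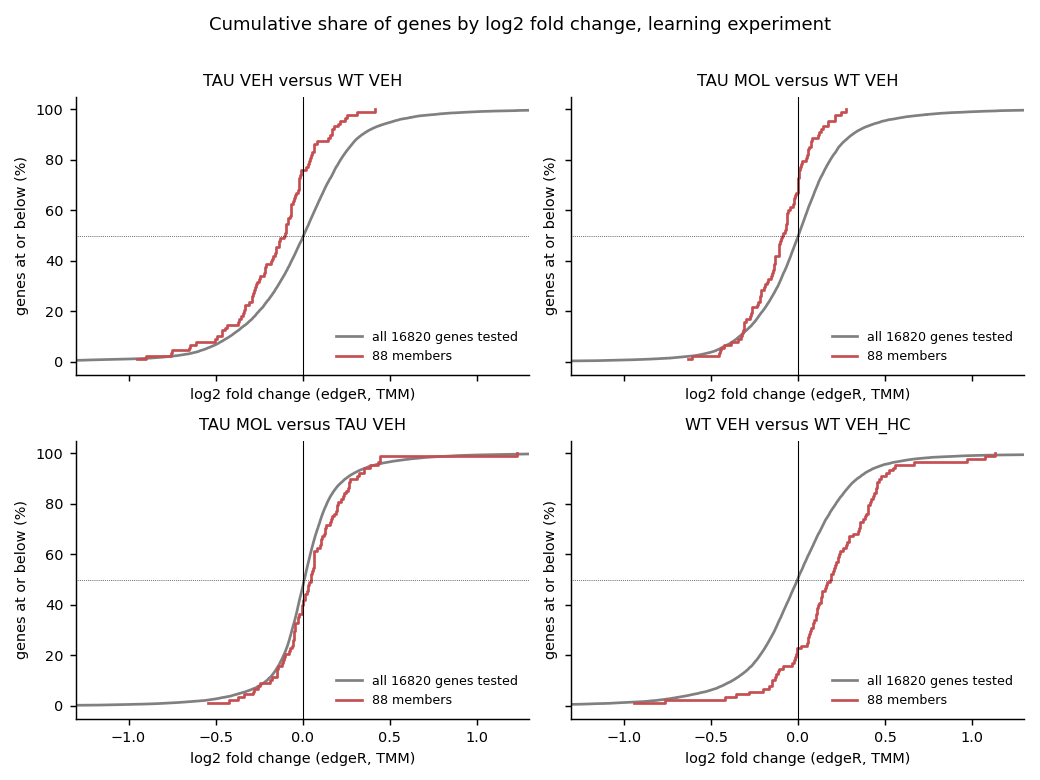
Each panel shows 1 comparison of the learning experiment, with the log2 fold change (edgeR with TMM scaling, drawn from −1.3 to 1.3) on the horizontal axis and the cumulative share of genes in percent on the vertical axis, for the 88 members in red and all 16820 genes tested in grey. The red line lies left of the grey one in TAU VEH versus WT VEH (median −0.10 against 0.00, or 0.04 against 0.15 with scaling by library size alone) and right of it in WT VEH versus WT VEH_HC (0.19 against 0.00).

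Of the 10 members on the activity list, 5 were lower in TAU VEH (Sik1, Midn, Arl4d, Gpr3 and Trib1), with a median log2 fold change of −0.30 over the 10. Of the other 78 members 7 were lower, with a median of −0.10. Over the whole list of 48 activity-regulated genes, 9 were lower and 1 higher, with a median of −0.09. The shares of all genes called lower were 10.8% of those tested and 14.1% of those at the level of the rule. Of the 5 called members, Arl4d kept its call after the correction for GC content and length, and the other 4 did not. The list was made with earlier results of these data known, and its count is a description.

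Sik1 (ENSMUSG00000024042, chr17:31981193-31992737 on the minus strand in mm9) had 745 and 598 normalized counts in WT VEH and 456 and 428 in TAU VEH, a log2 fold change of −0.61 ± 0.13, adjusted p = 0.00733. Midn (ENSMUSG00000035621, chr10:79611017-79621113, plus strand) had 3991 and 3287 in WT VEH and 2278 and 2089 in TAU VEH (log2 fold change −0.75 ± 0.11, adjusted p = 0.00158). Arl4d (ENSMUSG00000034936, chr11:101526855-101529146, plus strand) had 858 and 928 against 633 and 636 (−0.50 ± 0.08, adjusted p = 0.00256). For each of these 3 genes both TAU VEH libraries lay well below both WT VEH libraries. Trib1, at 719.8 and 699 in WT VEH and 594 and 521 in TAU VEH, and Gpr3, at 369.8 and 319 against 266 and 247, were separated by smaller margins (log2 fold change −0.35 ± 0.10, adjusted p = 0.0301 and −0.43 ± 0.13, adjusted p = 0.044). The call of Gpr3 was kept under 7 of 17 alternatives and was lost with DESeq2, with DESeq2 size factors, with library size alone and with the GC and length correction, among others. The calls were kept under 11 of 17 for Trib1, 13 for Sik1 and 16 for Midn. The remaining 5 did not pass: Spry4 overlapped between the groups (1021 and 947 against 993 and 758), as did Gadd45b (429.9 and 482 against 416 and 499), Klf10 (1156 and 1075 against 1061 and 1161) and Rasl11a (289.9 and 449.8 against 436 and 427), while Ier2 did not overlap but was close (280.0 and 277 against 229 and 247, adjusted p = 0.347). Thus the member with the widest margin in untrained mice, Spry4, gave a log2 fold change of −0.17 ± 0.11, adjusted p = 0.387 after training.

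Outside that list, Cyba and Chrm4 were lower. Cyba, the p22phox subunit of NADPH oxidases (ENSMUSG00000006519, chr8:124948672-124956840, minus strand), had 452, 399.9 and 414 in untrained WT and 338 and 279 in untrained THY-Tau22 libraries, and in the learning experiment 406 and 399 in WT VEH against 209 and 227 in TAU VEH (log2 fold change −0.90 ± 0.11, adjusted p = 0.00101). Chrm4, the M4 muscarinic acetylcholine receptor (ENSMUSG00000040495, chr2:91762346-91769986, plus strand, with 25 exon bases shared with Mdk on the other strand), had 1303 and 1158 in WT VEH and 783 and 803 in TAU VEH (−0.65 ± 0.08, adjusted p = 0.00114). In both genes the TAU VEH libraries differed from each other by less than their distance to WT VEH. The mitochondrial glutamine tRNA gene mt-Tq, at 289.9 and 287 in WT VEH and 217 and 147 in TAU VEH, had wide TAU VEH values (−0.65 ± 0.19, adjusted p = 0.04). AI836003 (895 and 979 against 700.2 and 640.2) and BC046404 (443 and 419.6 against 308 and 323) had log2 fold changes of −0.49 ± 0.10, adjusted p = 0.00592 and −0.47 ± 0.10, adjusted p = 0.00985. The last 2 of the 12 were Cdk2ap2, a CDK2-associated protein, and Slc25a38, the mitochondrial glycine carrier of heme synthesis, both at a log2 fold change of −0.33, with adjusted p of 0.012 and 0.0404. Arl4d, Chrm4 and Cyba were lower under each of the 17 alternatives computed for single genes, while the calls of AI836003 and BC046404 were each kept under 14 and that of mt-Tq under 10.

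**Figure D3:**
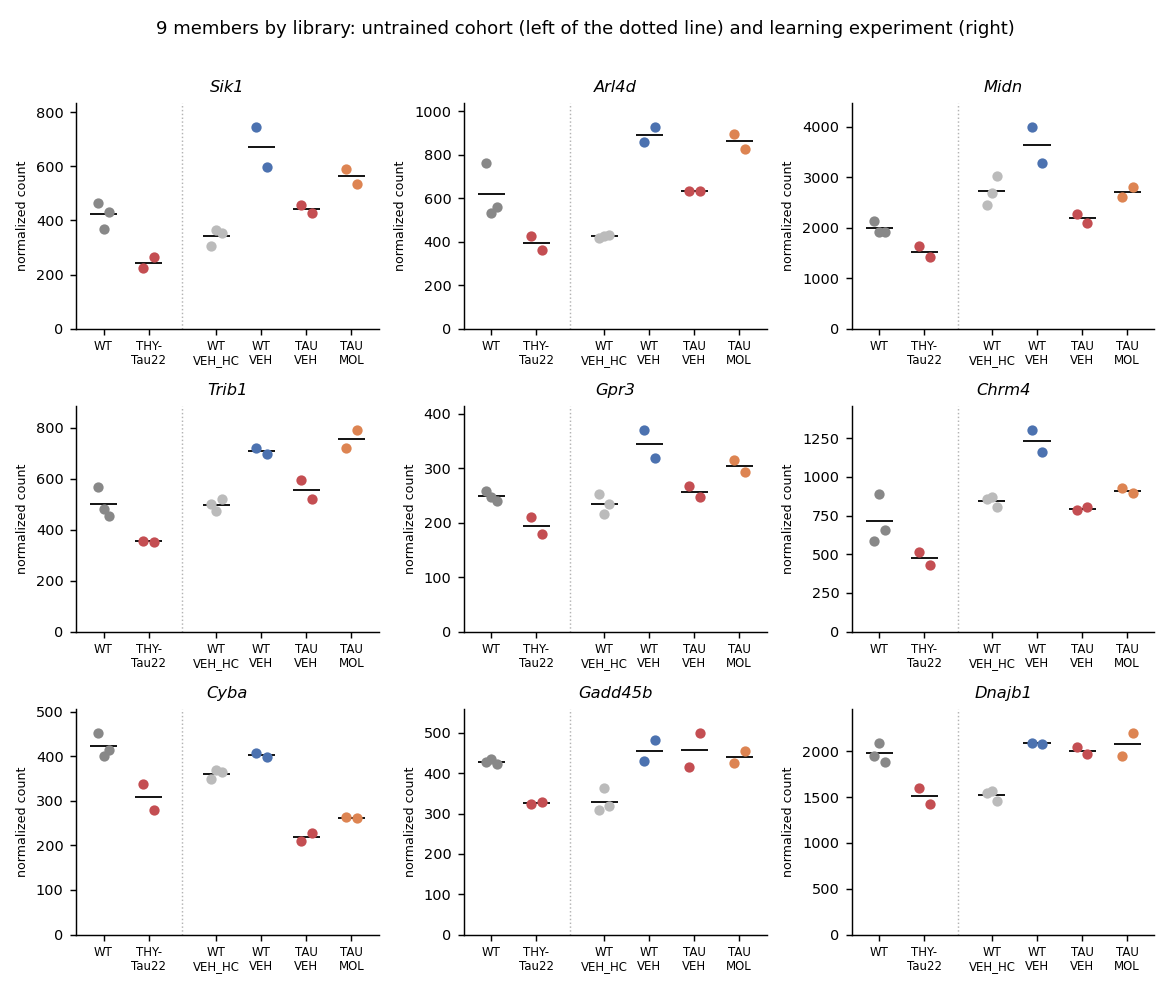
Normalized counts (vertical axes, from 0) of 9 members, with 1 point per library and a line at the group mean, in the untrained cohort (left of the dotted line) and in the learning experiment (right), which were normalized separately. In Sik1, Arl4d, Midn, Trib1, Gpr3, Chrm4 and Cyba both TAU VEH points lie below both WT VEH points, while Gadd45b overlaps and Dnajb1 differs little between these groups.

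Of the 10 members that headed the untrained ranking, Sik1 alone was called in TAU VEH versus WT VEH. This is near the background, with 10.8% of all genes tested and 14.1% of those at the level of the rule lower. Serpinb1a had 358 and 291 in WT VEH and 309 and 325 in TAU VEH, Ddc 306 and 262 against 261 and 263, and Nipal4 311 and 266 against 273 and 246, and the groups overlapped in each. They overlapped in Jsrp1 as well, at 97.6 and 118 against 82.2 and 100.5 (−0.26 ± 0.23, adjusted p = 0.523). Dlx5 (202 and 161 against 148 and 152) and Creld2 (543 and 492 against 449 and 428) did not overlap, with log2 fold changes of −0.29 ± 0.17, adjusted p = 0.305 and −0.25 ± 0.11, adjusted p = 0.164. Bbox1 lay on the other side, at 71.0 and 71.2 in WT VEH and 96.9 and 94.3 in TAU VEH (0.42 ± 0.25, adjusted p = 0.319). Sp8 and Dlk1 had the largest log2 ratios of group means in untrained mice, next to wide WT values. They were at 95.6 and 61.5 against 73.3 and 55.7 (Sp8) and 216 and 195 against 118 and 92.8 (Dlk1) in WT VEH and TAU VEH. Neither passed the test by edgeR (adjusted p = 0.618 and 0.152). Manf missed the limit at −0.29 ± 0.09, adjusted p = 0.0507, with 1826 and 1698 in WT VEH and 1525 and 1373 in TAU VEH. Mog was at 2588 and 2374 against 2234 and 2547, Pcp4 at 1349.9 and 1244 against 1435 and 1334, and Ebp and Sc4mol at −0.21 and 0.07 on the log2 scale. Across the 88 members the untrained log2 ratio and the TAU VEH versus WT VEH log2 fold change had a Pearson r of 0.287 and a Spearman rho of 0.266, which is across genes that share their libraries.

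Members called lower were mostly rich in GC, and so were all genes called lower, with 1523 of 1815 in the GC-rich class below. Across the 88 members the Spearman rho between GC content and the TAU VEH versus WT VEH log2 fold change was −0.517, and across 16780 genes it was also −0.517. The genes tested were split into 3 equal classes of GC content. In the GC-rich class (above 53.1%), 10 of 36 members were lower, beside 27.2% of all genes. In the middle class 1 of 44 members was lower, beside 4.04% of all genes, and in the GC-poor class (below 46.9%) 1 of 8 (mt-Tq), beside 1.18%. The median log2 fold change of the members was below that of all genes in each class, at −0.28 against −0.20, at −0.04 against 0.02 and at 0.01 against 0.14. With each library corrected for GC content and gene length, 4 members were lower (Arl4d, Cyba, mt-Tq and Chrm4), beside 2.18% of all genes tested. In that fit 56 members were below 0, against 48.4% of all genes. The median was −0.06 over the members and 0.006 over all genes. The part of GC content in these fold changes was not tested beyond this correction. Markers of CA1 pyramidal cells also moved in this comparison, with 5 of 7 lower and sums of 43152 to 46463 in WT VEH and 26265 to 27616 in TAU VEH. Of the choroid plexus markers 18 of 19 were lower. Of the interneuron markers 3 of 8 were lower, with sums of 48089 to 48892 in WT VEH and 41653 to 43196 in TAU VEH. Of the astrocyte markers 3 of 8 were higher, with sums of 160340 to 172130 and 204670 to 207470. The part of these cell types in the members' values was not tested.

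**Figure D4:**
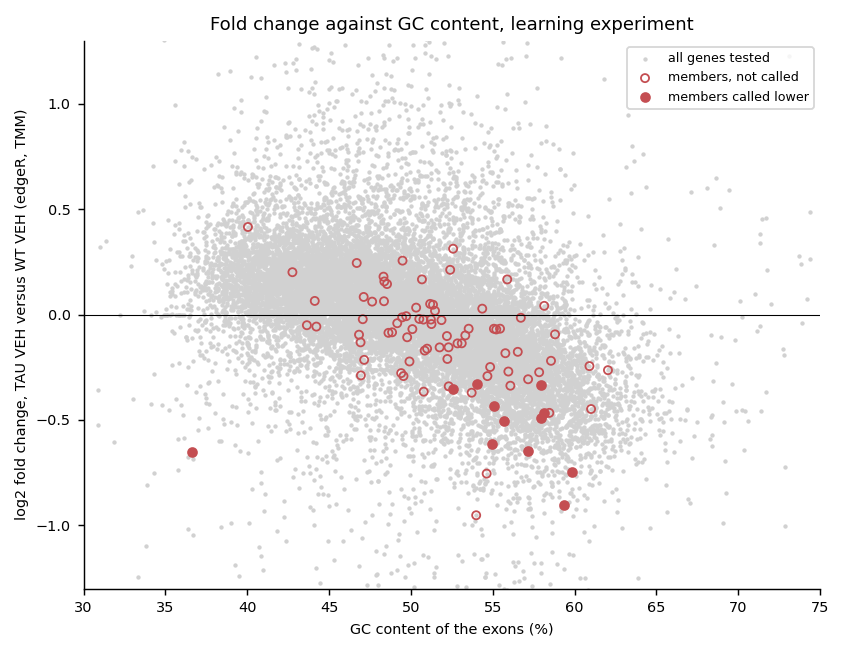
The log2 fold change of TAU VEH versus WT VEH (vertical axis, drawn from −1.3 to 1.3) against the GC content of the exons in percent (horizontal axis, drawn from 30 to 75), for all genes tested in grey and the 88 members in red, filled where lower. Of the 12 filled points, 10 lie in the GC-rich class above 53.1%, and mt-Tq stands alone at the left. That class also holds 1523 of the 1815 genes called lower among all genes tested.

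Training itself was measured in WT mice, in a comparison that shares the WT VEH libraries with the one above. In WT VEH versus WT VEH_HC, 16 of 88 members (18.2%) were higher and 1 lower, against 5.35% and 3.05% of all genes tested and 6.70% and 3.85% of the 12352 genes of the rule's level. A log2 fold change above 0 was found in 68 members (77.3%), against 49.6% of all genes. Both WT VEH libraries lay above all 3 WT VEH_HC libraries in 40 members (45.5%), against 22.7% of all genes. The median was 0.19 over the members and 0.00 over all genes. After the correction for GC content and length 15 members were higher, against 3.34% of all genes. Without WT VEH replicate 1, 2 of 88 members were higher, against 0.405% of all genes. Without WT VEH replicate 2 it was 6 of 88, against 1.22%, and without WT VEH_HC replicate 1 it was 10 of 88, against 2.12%. WT VEH_HC replicate 2 stood apart in oligodendrocyte genes, for example Mog (2215, 1058 and 2188 in WT VEH_HC replicates 1, 2 and 3) and Nipal4 (294, 129 and 288). The oligodendrocyte markers summed to 159650 to 321170 in WT VEH_HC and 307110 to 316740 in WT VEH, with a median log2 fold change of 0.37. Of the microglia markers 2 of 8 were higher (median 0.28), as were 2 of 8 interneuron markers (median 0.01). Of the dentate granule cell markers 2 of 8 were lower (median −0.25). The part of these cell types in the members' values was not tested.

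All 10 activity-list members had a log2 fold change above 0 with training, 7 of them higher by the test, with a median of 0.44. Arl4d rose from 415, 426 and 431 normalized counts in WT VEH_HC to 858 and 928 in WT VEH, a log2 fold change of 1.07 ± 0.08, adjusted p = 3.9e-05. Sik1 rose from 307, 366 and 352 to 745 and 598 (0.97 ± 0.11, adjusted p = 0.000922). For both, the lowest trained library was well above the highest home-cage library. Gpr3 rose from 252, 216 and 234 to 369.8 and 319 (0.56 ± 0.12, adjusted p = 0.0198), and Trib1 from 502, 475 and 520.5 to 719.8 and 699 (0.51 ± 0.09, adjusted p = 0.00956). Gadd45b, at 308, 362 and 319 in WT VEH_HC and 429.9 and 482 in WT VEH, Midn and Klf10 rose by 0.46, 0.42 and 0.38 on the log2 scale. Spry4 (785, 812 and 720.3 against 1021 and 947) and Ier2 (174, 234 and 222 against 280.0 and 277) did not overlap but had adjusted p of 0.0578 and 0.0846, and Rasl11a overlapped (374, 375 and 314 against 289.9 and 449.8). Of the whole list of 48 activity-regulated genes, 16 were higher and 2 lower, beside 5.35% and 3.05% of all genes tested.

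Among the other members, all 3 on the chaperone list were higher with training, as were 10 of the 22 genes of that list. Of all genes tested 5.35% were higher, and of those at the level of the rule 6.70%. Dnajb1, an Hsp40 cochaperone, was at 1542, 1565 and 1463 in WT VEH_HC and 2093 and 2081 in WT VEH (0.45 ± 0.07, adjusted p = 0.00576), and Creld2 (0.37 ± 0.10) and Manf, a secreted stress protein (0.36 ± 0.08), rose less. Chrm4 went from 855, 867 and 803 to 1303 and 1158 (0.55 ± 0.08, adjusted p = 0.00277). Hbb-b2, a beta globin gene with a near-identical copy, went from 92.7, 95.1 and 53.3 to 165 and 188 (1.13 ± 0.29, adjusted p = 0.0375), and the 5 blood markers summed to 921 to 1161 in WT VEH_HC and 1320 to 1504 in WT VEH. Mettl7a1, Sc4mol, Elof1 and Tob2 were the other members higher. Nhlh1, a basic helix-loop-helix factor of neurons, was the 1 member lower, at 131, 217 and 202 in WT VEH_HC and 106 and 85.2 in WT VEH (−0.94 ± 0.25, adjusted p = 0.0432). All 19 choroid plexus markers were higher as well, with a median log2 fold change of 3.30, and their part in the members' values was not tested. Arl4d and Sik1 were higher under each of the 17 alternatives, while the calls of Klf10 and Nhlh1 were each kept under 8 and that of Creld2 under 9. Those of Gadd45b, Hbb-b2 and Manf were kept under 11, 12 and 13. The calls of Midn, Gpr3, Trib1, Sc4mol, Chrm4 and Dnajb1 were kept under 14 to 16. Since the WT VEH libraries enter this comparison and that with TAU VEH, a high value in WT VEH moves a gene in both.

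**Figure D5:**
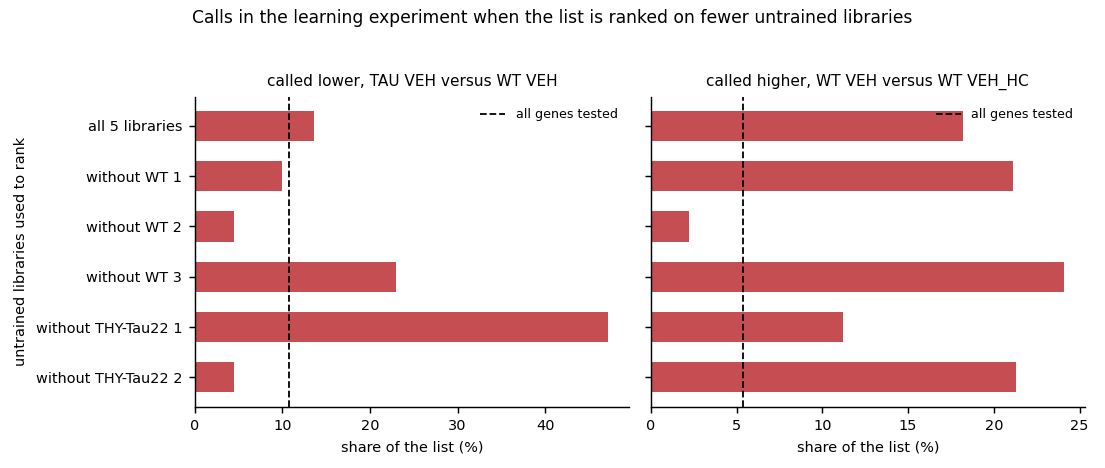
Bars give the share of the list in percent that was lower in TAU VEH versus WT VEH (left) or higher in WT VEH versus WT VEH_HC (right), when the genes were ranked on all 5 untrained libraries or on 4 of them, with the dashed line at the share of all genes tested (10.8% and 5.35%). The left share runs from 4.44% without WT replicate 2 to 47.2% without THY-Tau22 replicate 1, and the right share from 2.22% without WT replicate 2 to 24.1% without WT replicate 3.

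Both counts moved with the untrained libraries used for the ranking. Without THY-Tau22 replicate 1, 42 of 89 genes were lower in TAU VEH (47.2%), and without THY-Tau22 replicate 2, 4 of 89 (4.49%). Without WT replicates 1, 2 and 3 it was 9 of 90, 4 of 90 and 20 of 87. For training, 10 of 89 and 19 of 89 genes were higher without THY-Tau22 replicates 1 and 2, and 19 of 90, 2 of 90 and 21 of 87 without WT replicates 1, 2 and 3.

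The treated group was compared with the same WT VEH libraries and with TAU VEH. In TAU MOL versus WT VEH, 3 members (3.41%) were lower, namely Cyba, Midn and Chrm4, and 0 were higher, against 5.02% and 0.612% of all genes. Among the 12352 genes of the rule's level the shares were 6.67% and 0.785%. DESeq2 gave the same counts of 3 and 0. At an unadjusted p under 0.05, 1 of 88 members was higher and 14 were lower, against 6.99% and 12.8% of all genes. A log2 fold change below 0 was found in 62 members (70.5%), against 49.5% of all genes, and the median was −0.09 over the members and 0.00 over all genes, while with scaling by library size alone it was 0.03 over the members and 0.12 over all genes. Leaving out either WT VEH library or either TAU MOL library left 0 members lower, in fits that called 0.00578% to 0.0173% of all genes lower. The correction for GC content and length also left 0, with 0.137% of all genes lower. So few genes were called in these fits that the 0 says little of the members. Cyba was at 263 and 261 in TAU MOL (log2 fold change −0.63 ± 0.11, adjusted p = 0.0104), Chrm4 at 927 and 893 (−0.45 ± 0.08, adjusted p = 0.0138) and Midn at 2608 and 2803 (−0.44 ± 0.11, adjusted p = 0.039), each below both WT VEH libraries. Of 17 alternatives the call was kept under 12 for Cyba, 11 for Chrm4 and 8 for Midn. That of Midn was lost with DESeq2 size factors, library size alone and the GC and length correction, among others.

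In TAU MOL versus TAU VEH, the comparison that asks for an effect of CSP-TTK21, no member was called in either direction by edgeR (0 of 88 lower and 0 of 88 higher, with 0% of all genes either way), and the smallest adjusted p of a member was 0.213 (Arl4d). DESeq2 called 54 of all genes and no member, with a smallest adjusted p of 0.057 among the members. At an unadjusted p under 0.05 by edgeR, 10 members were higher and 3 lower, against 3.82% and 2.5% of the 16820 genes tested. By DESeq2 5 were higher and 3 lower, against 1.79% and 1.19%. These shares are over 25933 genes with no filter on low counts, so they are not on the scale of edgeR's shares. A log2 fold change above 0 was found in 52 members (59.1%), against 52.8% of all genes, with a median of 0.05 against 0.01. Arl4d had 633 and 636 with CSP and 897 and 829 with CSP-TTK21 (log2 fold change 0.45 ± 0.08). Trib1 had 594 and 521 with CSP and 719.8 and 792 with CSP-TTK21 (0.43 ± 0.10), and Sik1 had 456 and 428 against 592 and 535 (0.35 ± 0.13). In these 3 genes both TAU MOL libraries lay above both TAU VEH libraries, though no difference passed the test. This held for 27 of 88 members, against 21% of all genes, and the opposite order for 11, against 17.9%. Among the 27 were also Midn (0.31 ± 0.11), Gpr3 (0.24 ± 0.13), Ier2 (0.32 ± 0.15), Cyba (0.27 ± 0.11) and Chrm4 (0.20 ± 0.09). All of these but Ier2 were called lower in TAU VEH versus WT VEH, and the TAU VEH libraries enter both comparisons, so that a low value in TAU VEH moves a gene in both. Over the 10 activity-list members the median was 0.27, with 7 above 0. Since edgeR called no gene in this comparison, it called no cell type marker either. The study, with DESeq2, reported Kl, which is on the choroid plexus list, as raised by CSP-TTK21. The medians of the marker lists lay on both sides of 0. CA1 markers summed to 37617 to 37802 in TAU MOL, with a median log2 fold change of 0.42 over TAU VEH, and the medians were 0.24 for interneuron, 0.20 for neocortex and 1.21 for choroid plexus markers. The median was −0.17 for CA2 and CA3 markers, with sums of 67566 to 69938 in TAU VEH and 57768 to 62342 in TAU MOL, and −0.24 for blood markers. The other lists had medians from −0.03 (hippocampal tissue) to 0.09 (oligodendrocyte precursors). Their part in the members' values was not tested. Sc4mol lay the other way, at 2203 and 2318 with CSP and 1829.5 and 1738 with CSP-TTK21 (−0.34 ± 0.10), as did Rasl11a (436 and 427 against 289.5 and 353), and Dlk1 had the widest difference, 118 and 92.8 against 337 and 163, with the TAU MOL libraries far apart.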

How the data were processed

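RNA-seq was measured in 14 libraries of mouse dorsal hippocampus, 5 of an untrained cohort and 9 of a learning experiment, grouped by their labels. The authors aligned reads to mm9 with TopHat2 2.0.10 and Bowtie2 2.1.0 and counted them per gene with HTSeq 0.5.4p3. The deposited counts are whole numbers, and a second set of deposited columns holds a normalized signal, in which a single factor per library divides the counts. The normalized signal ranked the genes (mean of at least 100, top 100) and gives the levels printed. The 2 tables were normalized separately, so levels are compared only within each.

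Tests used the counts of the 9 learning libraries in 1 fit with edgeR 4.0.16 in R 4.3.3 (TMM, filterByExpr, quasi-likelihood F test, Benjamini-Hochberg adjustment over 16820 genes, adjusted p under 0.05 and absolute log2 fold change above 0.2), which was tested on simulated data first. Errors of log2 fold changes are SEs. Replicates varied with a common coefficient of variation of 0.084. DESeq2 1.42.0, other scalings, filters and fits, a correction for GC content and length, and leaving out libraries were alternatives. Columns of the authors' own comparisons hold fold changes and p-values and were not used. GC content, length and positions came from the mm9 annotation, promoters from RefSeq.

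Named genes are the 10 members highest in rank, the genes at the limit of the list, every member on a gene list, and called members whose libraries did not overlap, by size of change. These were up to 10 lower and 5 higher in TAU VEH versus WT VEH, 5 and 3 in TAU MOL versus WT VEH, and 5 and 5 in the other comparisons. Dlk1, Sp8, Ppp1r14c, Pvr, Cdk2ap2, Slc25a38, Mettl7a1, Elof1 and Tob2, the members in the closing section, and the count of members below 0, were chosen after their values were seen. The members, gene lists and tests were chosen with earlier results of these data known.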

Additional observations from a re-analysis of the deposited data

Results flagged for a closer look

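For 11 members, each below every WT library in untrained THY-Tau22 mice by the choice of the list, both TAU VEH libraries lay above both WT VEH libraries, the opposite side. In all genes tested 30.2% were so placed. The log2 fold changes of TAU VEH versus WT VEH were 0.42 for Bbox1, 0.26 for Lrrc1, 0.25 for Ypel2, 0.20 for C030030A07Rik, 0.17 for Klhl25, 0.17 for Fam57a, 0.16 for Ppp1r14c, 0.15 for Dcp1a, 0.062 for Med31, 0.047 for Prkrip1 and 0.033 for Mettl7a1, and none passed the test. The difference between the untrained and the trained mice was not tested, because the tables were normalized separately and the untrained values chose the genes.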

How the results depend on the processing

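In TAU VEH versus WT VEH, where 12 members were lower and 0 higher, 7 were lower and 3 higher with library size alone, 4 lower with the correction for GC content and length, and 19 lower in a fit on the groups compared (13.9% of all genes). Leaving out single learning libraries gave 6 to 17 members lower, and choosing the members without single untrained libraries 4 to 42. Without single WT VEH_HC libraries 13 to 17 members were lower, beside 10.7% to 12.6% of all genes. Members below 0 (67) numbered 40 with library size alone and 56 to 69 without single learning libraries. In TAU MOL versus WT VEH, 3 members were lower, with 1 for library size alone (1.94% of all genes), 6 with no filter on low counts (4.79%), 0 after the GC and length correction, 0 to 3 without single learning libraries and 0 to 29 for lists without single untrained libraries. Without single WT VEH_HC libraries 3 members stayed lower in that comparison, beside 5.29% to 6.85% of all genes. In TAU MOL versus TAU VEH, 1 member was lower and 3 higher with no filter, in place of 0, beside 0.347% and 0.551% of all genes. In WT VEH versus WT VEH_HC, 16 members were higher and 1 lower, with 7 higher and 0 lower in a fit on the groups compared (1.42% and 0.463% of all genes), 3 lower with no filter (4.3%), 0 lower after the GC and length correction (1.26%), 2 to 21 higher and 0 to 2 lower without single libraries of either experiment. Lists chosen without single untrained libraries were counted in the main fit, so the share of all genes stayed the same. Where a library was left out of a group of 2, the lone library was assumed to vary like the other groups. Causes of these shifts were not tested. The replicate numbers were not shown to pair the libraries, since the deviations of same-numbered libraries correlated at −0.0249 to 0.249 across genes. With the replicate block 13 members were lower in TAU VEH versus WT VEH (11.8% of all genes) and 23 higher in WT VEH versus WT VEH_HC (11.2% of all genes), while mt-Tq (adjusted p = 0.0602) and Nhlh1 (adjusted p = 0.0529) were no longer called. Counts under the remaining alternatives stayed within 1.5 times the value given, and no member whose single value was recomputed changed sign. Single values of Cdk2ap2, Slc25a38, Mettl7a1, Elof1 and Tob2 were not recomputed under the alternatives. Among single genes, Midn lost its call in TAU VEH versus WT VEH only with the GC and length correction (adjusted p = 0.0772). Whether depth or the spread between libraries limited the calls was not tested.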
